A study of Mus musculus with 8 samples.

Results

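The nuclear genes of respiratory complexes II to V were taken by symbol: Sdha to Sdhd, Cyc1, Cycs, and every name beginning with Uqcr, Cox4 to Cox8 or Atp5, with names containing -ps left out. They were 49 of 48709 genes: 4 of complex II, 9 of complex III, cytochrome c, 18 of complex IV and 17 with an ATP synthase name. Of these, 47 passed the filter on low counts. The symbols take in Atp5s and Atp5sl, which are not now counted as ATP synthase subunits. Atp5sl carries the name Dmac2 in GENCODE and is known as an assembly factor of complex I.

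The respiratory chain of the inner mitochondrial membrane passes electrons from succinate through complex II and ubiquinone to complex III, then through cytochrome c to complex IV, where oxygen is reduced. Complexes III and IV pump protons, and ATP synthase, also called complex V, lets them flow back while it makes ATP. Most subunits are encoded in the nucleus and imported, and in muscle several complex IV subunits exist as a contractile-tissue form and a form found in most tissues.

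RNA was taken from whole gastrocnemius, a mainly fast hindlimb muscle, of C57BL/6 mice at 16 weeks. The compared groups were mice with a floxed glucocorticoid receptor gene (Nr3c1) crossed to HSA-Cre-ERT2, labelled GR(i)skm-/- (n = 4), and controls with the floxed gene (n = 4). HSA is the human skeletal actin promoter, so Cre is meant to act in myofibres, and the other cells of the muscle keep the receptor. No inducer is named in the sources used here. Whether libraries came from different mice is not in the labels, so p-values here measure only how these libraries vary. Libraries E, F, G and H are those labelled knockout and A, B, C and D are control in this text.

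Totals ran from 37944368 to 52200305 counts in the libraries labelled knockout and from 36680510 to 44987629 in control. Values are CPM, counts scaled to a common library total with TMM factors. Nr3c1 was at 87.1, 38.6, 96.7 and 42.8 CPM in E to H, against 83.2, 89.6, 84.7 and 90.0 CPM in controls A to D. It was reduced in F and H but not in E and G, so the label does not match the targeted transcript in 2 of 4 libraries, and each result below is that of the libraries as labelled. Of 8 muscle markers 2 fell, Acta1 and Mylpf, and all 8 together summed to 151400 to 174900 CPM in the libraries labelled knockout and 166400 to 212200 CPM in control. All 6 Schwann cell markers fell in the libraries labelled knockout, at a summed 64.0 to 86.6 CPM against 173 to 315 CPM in control.

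The transcripts of complexes III, IV and V were slightly lower on balance in the libraries labelled knockout, and those of complex II were not. A total of 40 of 47 genes (85.1%) had a negative log2 fold change, against 51.7% of all genes tested, and the median was -0.17 against -0.01. Few passed the test one by one. By edgeR's quasi-likelihood test with Benjamini-Hochberg adjustment over all 14712 genes, 3 fell (6.38%), none rose (also none by DESeq2 or limma-voom) and 44 did not pass, and 8.45% of all genes were called, 4.41% as lower and 4.04% as higher. In both directions together the share called was below that of all genes, and in the lower direction it was above it, on 3 genes. At an unadjusted p under 0.05 there were 23 of 47 genes (48.9%), against 27.1% of all genes. In 12 genes, all lower, the 4 libraries labelled knockout lay below the 4 control libraries (25.5%, against 9.02% of all genes lower and 7.68% higher without overlap). In libraries F and H alone against control, 17 genes lay below and 1 above (36.2% lower, against 15.7% of all genes), but none passed the edgeR test there (10 had an unadjusted p under 0.05), where 1.49% of all genes did. Without control library C no gene passed the edgeR test (14 had an unadjusted p under 0.05), 35 of 47 had a negative log2 fold change, and the median was -0.12. None passed without F, G or A either (18, 15 and 14 had an unadjusted p under 0.05), whereas 11 fell without B and 7 without D. For the unadjusted p, the share of all genes was taken only with no library left out. The counts at that threshold with libraries left out have no such share beside them. They are not read as a result about these genes. The share of all genes called in either direction at an adjusted p under 0.05 moved as well. It was 4.08% without C, 4.3% without F, 2.51% without G and 4.06% without A, against 12.1% without B and 5.98% without D. Fewer cells of a type and less RNA per cell cannot be told apart in whole muscle.

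**Figure D1:**
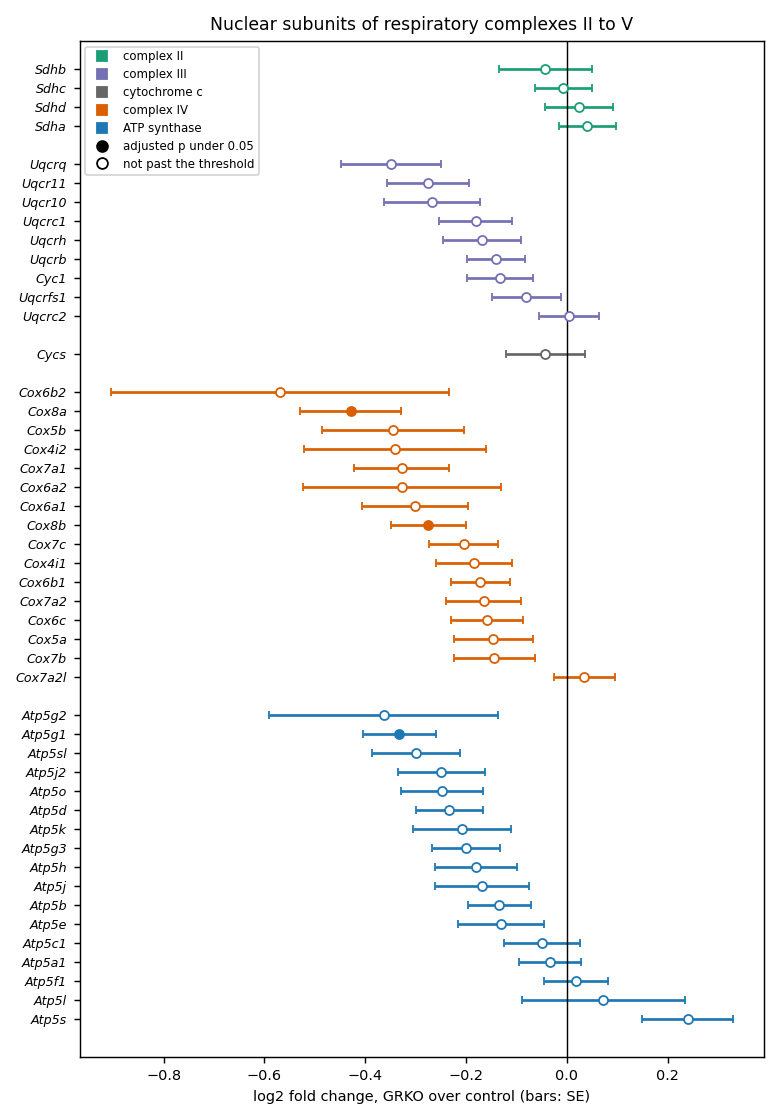
Log2 fold change of the 47 tested genes, libraries labelled knockout over control, by complex, with bars of 1 SE from the edgeR fit (n = 4 each). Filled points passed at an adjusted p under 0.05: Atp5g1, Cox8a and Cox8b. The 4 complex II genes lie about 0, and all but 1 of the 16 complex IV genes lie below it.

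The 3 genes that fell were Atp5g1, Cox8a and Cox8b. Atp5g1 encodes subunit c, which forms the rotating ring of ATP synthase in the membrane. It lies on chromosome 11 from 96068852 to 96075670 (minus strand, GRCm38). It was at 178, 161, 185 and 188 CPM in E to H, against 237, 206, 233 and 221 CPM in controls A to D. The groups did not overlap, and library F was the lowest of all. The log2 fold change was -0.33 ± 0.07 (SE, n = 4 each, edgeR adjusted p = 0.0206). Cox8a, the form of the smallest complex IV subunit found in most tissues, lies on chromosome 19 from 7215153 to 7217616 (minus strand). It was at 18.3, 16.3, 15.2 and 16.2 CPM in E to H, against 26.2, 20.5, 22.9 and 19.4 CPM in controls A to D. Library D came closest to the knockout-labelled libraries and A was the highest. The log2 fold change was -0.43 ± 0.10 (SE, edgeR adjusted p = 0.0275). Cox8b, the heart and skeletal muscle form of the same subunit in rodents, lies on chromosome 7 from 140898945 to 140900446 (minus strand). It was at 143, 149, 146 and 142 CPM in E to H, against 183, 167, 195 and 157 CPM in controls A to D. The groups did not overlap, and the libraries labelled knockout lay much closer together than the control libraries. The log2 fold change was -0.27 ± 0.07 (SE, edgeR adjusted p = 0.0451). All 3 calls ended without libraries E and G, with sizes of -0.36, -0.45 and -0.27 and adjusted p-values of 0.108, 0.110 and 0.202 for Atp5g1, Cox8a and Cox8b, in that order. After removal of the GC trend in each library, Atp5g1 stayed called (-0.37, adjusted p = 0.0195), whereas Cox8a (-0.28, 0.0842) and Cox8b (-0.15, 0.240) did not.

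The promoters of these 3 genes are shown with those of Atp5g3, which encodes the same mature subunit c, and of Sdha, a complex II gene that did not pass the test, to show which of the searched factor motifs each holds. Each sequence runs 5′ to 3′ from 250 bases before to 50 after the start in RefSeq (GRCm38.p6), with matches to the searched motifs in capitals.
Atp5g1, chr11:96075582-96075881, minus strand: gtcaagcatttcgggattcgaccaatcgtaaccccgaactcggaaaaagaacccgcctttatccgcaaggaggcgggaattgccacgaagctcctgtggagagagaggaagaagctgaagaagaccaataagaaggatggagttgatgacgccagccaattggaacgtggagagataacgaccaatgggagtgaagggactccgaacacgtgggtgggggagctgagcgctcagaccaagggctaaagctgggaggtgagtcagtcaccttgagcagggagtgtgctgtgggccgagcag
Atp5g3, chr2:73911277-73911576, minus strand: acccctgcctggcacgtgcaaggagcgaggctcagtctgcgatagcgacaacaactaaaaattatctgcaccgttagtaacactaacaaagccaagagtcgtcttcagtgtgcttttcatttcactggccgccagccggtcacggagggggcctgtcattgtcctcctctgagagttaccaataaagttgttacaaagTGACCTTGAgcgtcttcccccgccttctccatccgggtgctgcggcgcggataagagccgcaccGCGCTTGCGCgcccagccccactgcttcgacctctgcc
Cox8a, chr19:7217567-7217866, minus strand: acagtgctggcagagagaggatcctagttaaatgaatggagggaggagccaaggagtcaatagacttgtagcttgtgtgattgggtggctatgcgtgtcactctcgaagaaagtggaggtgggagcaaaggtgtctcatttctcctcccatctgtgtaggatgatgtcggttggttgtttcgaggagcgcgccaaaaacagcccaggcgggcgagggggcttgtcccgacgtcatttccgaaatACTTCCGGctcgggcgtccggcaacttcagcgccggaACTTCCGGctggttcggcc
Cox8b, chr7:140900397-140900696, minus strand: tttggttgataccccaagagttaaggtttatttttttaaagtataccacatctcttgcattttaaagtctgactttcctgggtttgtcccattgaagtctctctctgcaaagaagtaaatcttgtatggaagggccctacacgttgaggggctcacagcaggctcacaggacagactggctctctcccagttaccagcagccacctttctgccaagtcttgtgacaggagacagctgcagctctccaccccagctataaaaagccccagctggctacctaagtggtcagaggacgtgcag
Sdha, chr13:74350191-74350490, minus strand: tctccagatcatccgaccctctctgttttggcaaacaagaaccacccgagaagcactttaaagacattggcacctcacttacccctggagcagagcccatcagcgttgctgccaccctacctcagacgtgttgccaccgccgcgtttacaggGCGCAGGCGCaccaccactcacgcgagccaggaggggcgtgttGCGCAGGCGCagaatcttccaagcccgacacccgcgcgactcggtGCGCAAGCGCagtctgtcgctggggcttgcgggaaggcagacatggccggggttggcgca
Atp5g1 and Cox8b held none of the searched motifs. The capitals in Cox8a are 2 matches to the ETS motif CCGGAAGT, those in Sdha are 3 matches to the NRF1 motif (GCGCA and GCGC with 1 base of any kind between them), and those in Atp5g3 are 1 match each to the NRF1 motif and the ERR motif TCAAGGTCA. NRF1, the ETS factor GABP and the ERR receptors are known regulators of nuclear respiratory genes. Promoters were matched for 35 of the 47 tested genes, and both strands were searched. NRF1 matches occurred in 10 of 35 (28.6%), against 5.19% of 27025 genes with a promoter in the table. ETS matches occurred in 4 (11.4%, against 4.31%), matches to the YY1 motif AANATGGC in 5 (14.3%, against 6.96%) and ERR matches in 2 (5.71%, against 0.466%). The glucocorticoid response element, an inverted repeat bound by the receptor, matched none of the 35, against 0.537% of all genes. These matches describe letters in the sequence only, and the searched motifs did not overlap each other in the 5 sequences shown.

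Complex II, succinate dehydrogenase, was even between the groups. The flavoprotein gene Sdha was at 933, 941, 955 and 946 CPM in E to H, against 917, 899, 947 and 907 CPM in controls A to D, with a log2 fold change of 0.04 ± 0.06 (SE). The ranges overlapped and were narrow in both groups. Sdhb, the iron-sulphur subunit, and Sdhc and Sdhd, the membrane anchors, had log2 fold changes of -0.04 ± 0.09, -0.01 ± 0.06 and 0.02 ± 0.07. None of the 4 had an unadjusted p under 0.05, and the signs of Sdhb, Sdhc and Sdhd turned under other settings. Their summed level was 1703 ± 30.5 CPM in the libraries labelled knockout and 1683 ± 62.0 CPM in control (SD, n = 4 each).

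In complex III, the 3 genes with the largest log2 fold changes, Uqcrq, Uqcr11 and Uqcr10, encode small subunits. Uqcrq, which helps bind ubiquinone, was at 179.9, 164.9, 150.2 and 149.7 CPM in E to H, against 227.9, 184.5, 229.3 and 179.6 CPM in controls A to D. The highest labelled-knockout library, E, just exceeded control library D, so the groups overlapped (log2 fold change -0.35 ± 0.10, edgeR adjusted p = 0.0536). Uqcr11 and Uqcr10, small membrane subunits, had log2 fold changes of -0.28 ± 0.08 and -0.27 ± 0.09 (edgeR adjusted p = 0.0623 and 0.100). Uqcrb and the hinge protein gene Uqcrh had -0.14 ± 0.06 and -0.17 ± 0.08. Among the catalytic subunits, the Rieske iron-sulphur protein gene Uqcrfs1 and the cytochrome c1 gene Cyc1 had -0.08 ± 0.07 and -0.13 ± 0.07. The pair of core proteins differed, with Uqcrc1 at 630 ± 17.4 CPM in the libraries labelled knockout and 714 ± 61.9 CPM in control (SD, no overlap) and Uqcrc2 at 510 ± 17.3 CPM and 508 ± 14.4 CPM in the same groups. None of the 9 genes passed the adjusted test, 5 had an unadjusted p under 0.05 and 3 did not overlap, Uqcr11, Uqcrb and Uqcrc1. Cytochrome c itself (Cycs), the electron carrier between complexes III and IV, was at 185 ± 9.77 CPM in the libraries labelled knockout and 191 ± 18.5 CPM in control, a log2 fold change of -0.04 ± 0.08.

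Complex IV, cytochrome c oxidase, had the lowest median log2 fold change of the complexes, -0.24, with 15 of 16 tested genes negative. Besides Cox8a and Cox8b, Cox7a1, the contractile-muscle form of subunit VIIa, was at 139, 131, 126 and 135 CPM in E to H, against 185, 147, 189 and 146 CPM in controls A to D. Control libraries A and C were high, and B and D lay just above the labelled-knockout range (log2 fold change -0.33 ± 0.09, edgeR adjusted p = 0.0556). Cox6b1, a subunit on the side of the intermembrane space, and Cox7c, a small membrane subunit, also did not overlap. Cox6b1 averaged 268.5 ± 5.48 CPM in the libraries labelled knockout and 302 ± 11.9 CPM in control, and Cox7c 51.8 ± 2.42 CPM in the libraries labelled knockout and 59.7 ± 4.42 CPM in control (SD). Their log2 fold changes were -0.17 ± 0.06 and -0.20 ± 0.07 (edgeR adjusted p = 0.0909 and 0.0884). Cox4i1, the main form of subunit IV, averaged 511 CPM in the libraries labelled knockout and 580 CPM in control, with a log2 fold change of -0.18 ± 0.08. Cox5a, Cox6c, Cox7a2 and Cox7b, further structural subunits, lay between -0.14 and -0.17. Cox5b had -0.34 ± 0.14 and Cox6a1, the form of subunit VIa found in most tissues, -0.30 ± 0.10. Cox7a2l, a factor that joins complexes III and IV into supercomplexes, was the exception, at 100.3 ± 2.50 CPM in the libraries labelled knockout and 97.9 ± 5.18 CPM in control. Genes of lung and testis forms were scarce. Cox4i2, the lung form of subunit IV, was at 1.17 to 1.73 CPM in the libraries labelled knockout and 1.52 to 1.97 CPM in control. Cox6b2, a testis form, had 8 to 13 counts per library labelled knockout and 10 to 19 per control library, and its log2 fold change of -0.57 ± 0.34, the lowest of the 47, did not pass (edgeR adjusted p = 0.298). The testis form Cox7b2 had 2 counts in all 8 libraries, and Cox8c, another, had 0 of 343787837 counts, which allows a level of up to 0.00873 CPM by counting error alone.

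Of 17 genes with an ATP synthase name, 14 had a negative log2 fold change. In the catalytic head, the beta subunit gene Atp5b was at 2873, 2814, 2733 and 2806 CPM in E to H, against 3119, 2964, 3274 and 2958 CPM in controls A to D. The groups did not overlap, but the difference did not pass (log2 fold change -0.13 ± 0.06, edgeR adjusted p = 0.196). Its partner Atp5a1, the alpha subunit, had -0.03 ± 0.06 and the gamma subunit gene Atp5c1 -0.05 ± 0.08. The delta and epsilon subunit genes of the central stalk, Atp5d and Atp5e, had -0.23 ± 0.07 (no overlap, edgeR adjusted p = 0.0536) and -0.13 ± 0.08. In the peripheral stalk, Atp5o, Atp5h and Atp5j had -0.25 ± 0.08, -0.18 ± 0.08 and -0.17 ± 0.09, while Atp5f1, subunit b, had 0.02 ± 0.06. The genes of small membrane subunits Atp5j2 and Atp5k had -0.25 ± 0.09 and -0.21 ± 0.10, and Atp5l 0.07 ± 0.16. Atp5g3, the most abundant by CPM of the 3 subunit c genes, did not overlap, at 383 ± 19.4 CPM in the libraries labelled knockout and 440 ± 24.4 CPM in control (SD, log2 fold change -0.20 ± 0.07, edgeR adjusted p = 0.0882). Atp5sl and Atp5s, the genes outside the enzyme proper, had -0.30 ± 0.09 and 0.24 ± 0.09 (edgeR adjusted p = 0.0573 and 0.118).

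The complex IV genes summed to 2904, 2839, 2656 and 2638 CPM in E to H, against 3410, 2955, 3648 and 2811 CPM in controls A to D. Control library D lay within the labelled-knockout range, and A and C stood above the rest. The complex III genes summed to 2649 ± 33.2 CPM in the libraries labelled knockout and 2931 ± 196 CPM in control (SD, n = 4 each). The ATP synthase genes summed to 8306 ± 152 CPM in the libraries labelled knockout and 9003 ± 449 CPM in control. All 49 genes together summed to 15210 to 15850 CPM in the libraries labelled knockout and 15980 to 18420 CPM in control, a log2 ratio of means of -0.12. Scaled by library size alone, without TMM, the log2 ratio was -0.05, and the genes took 1.59% to 1.61% of all counts in the libraries labelled knockout and 1.61% to 1.68% in control. With that scaling the median log2 fold change of all genes tested moved up as well. It was 0.06, against -0.01 with TMM, and that of the 47 genes was -0.10, against -0.17 with TMM. Of the 47 genes, library C was the highest of the 8 in 32, and its TMM factor, 0.913, was the lowest. In these genes the libraries labelled knockout were the more even group, with a median coefficient of variation of 5.17% per gene, against 9.68% in control. Control was the more variable in 37 of 47 genes. The same spread was not taken over all genes tested, so it is not read as particular to these genes.

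**Figure D2:**
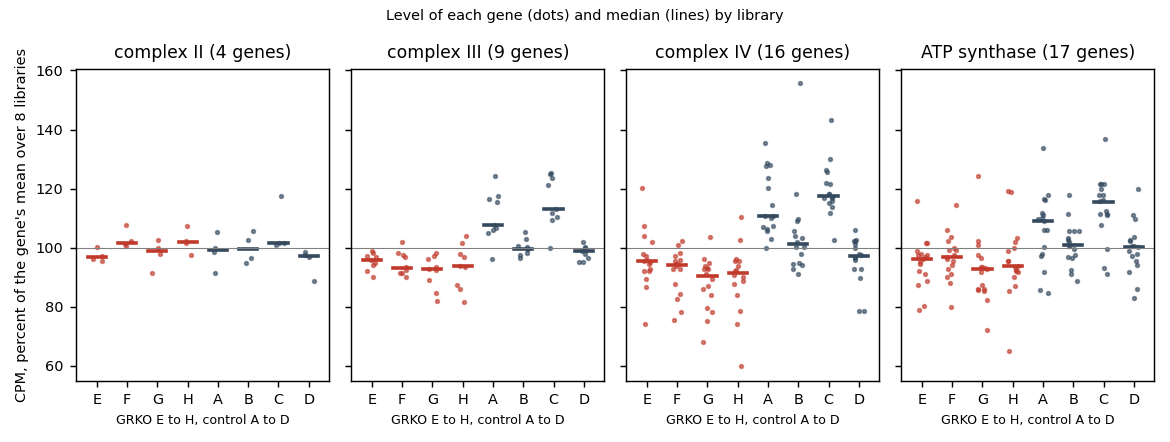
CPM of each tested gene as a percent of its mean over the 8 libraries (vertical axis), by library (horizontal axis, labelled knockout E to H then control A to D), for each complex; dots are genes and lines are medians. In complexes III, IV and ATP synthase the medians of libraries A and C stand highest (108% to 118%), and those of complex II stay between 96.8% and 102%.

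A few genes varied between libraries in a way that crossed the groups. Atp5l was at 72.1 and 69.1 CPM in G and H and at 69.6 CPM in control library D, and at 45.8 to 54.2 CPM in the other libraries. Cox6a2, the contractile-tissue form of subunit VIa, took the opposite course, at 417, 389 and 412 CPM in G, H and D and 492 to 752 CPM elsewhere. Atp5g2, another gene for subunit c, was at 33.4, 30.2 and 38.5 CPM in G, H and D and 44.8 to 63.5 CPM elsewhere. These genes were chosen after their values were seen, and their log2 fold changes had large errors (Cox6a2 -0.33 ± 0.20, Atp5g2 -0.36 ± 0.23). The labels give no batch that these libraries share.

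**Figure D3:**
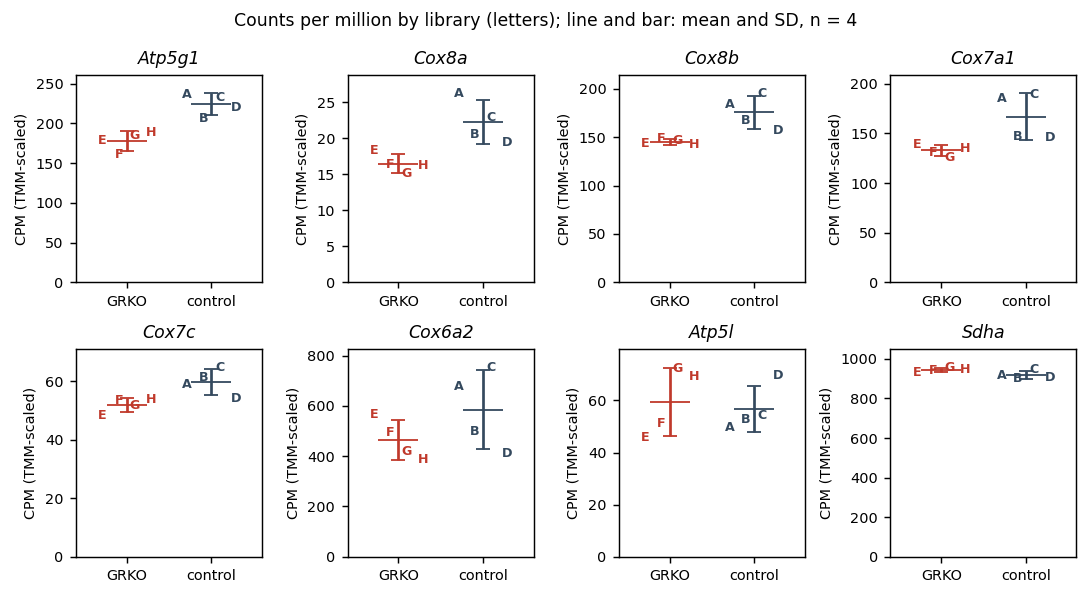
TMM-scaled CPM by library (letters) for 8 genes, with the mean and SD of each group (n = 4). Atp5g1, Cox8a, Cox8b, Cox7a1 and Cox7c do not overlap between groups, Cox6a2 and Atp5l place D with G and H, and Sdha is level.

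The difference was larger among short transcripts. Lengths are those of the principal coding transcript in GENCODE. The 15 genes under 600 nt had a median log2 fold change of -0.27 and 14 were negative, and the 13 genes of 600 to 1000 nt had -0.20 and all were negative. The 13 genes of 1000 to 2000 nt had -0.05, with 8 negative, and the 6 longer ones -0.04, with 5 negative. All genes tested shared part of this trend, with medians of -0.11, -0.13, -0.06 and 0.02 in the same 4 classes. When each library's trend on length was removed, the median of the 47 genes was -0.06, 37 were negative, and 2 fell (Atp5g1 and Cox8a, log2 fold changes of -0.37 and -0.29, edgeR adjusted p = 0.0139 and 0.0496). In that setting 8.14% of all genes were called, 639 of 14712 as lower and 558 as higher. The 2 calls are therefore not read as more than the share of all genes. The lengths differ between complexes, with a median of 2066 nt in complex II and 632 nt in complex IV. The difference between complexes and the difference between length classes cannot be told apart here.

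**Figure D4:**
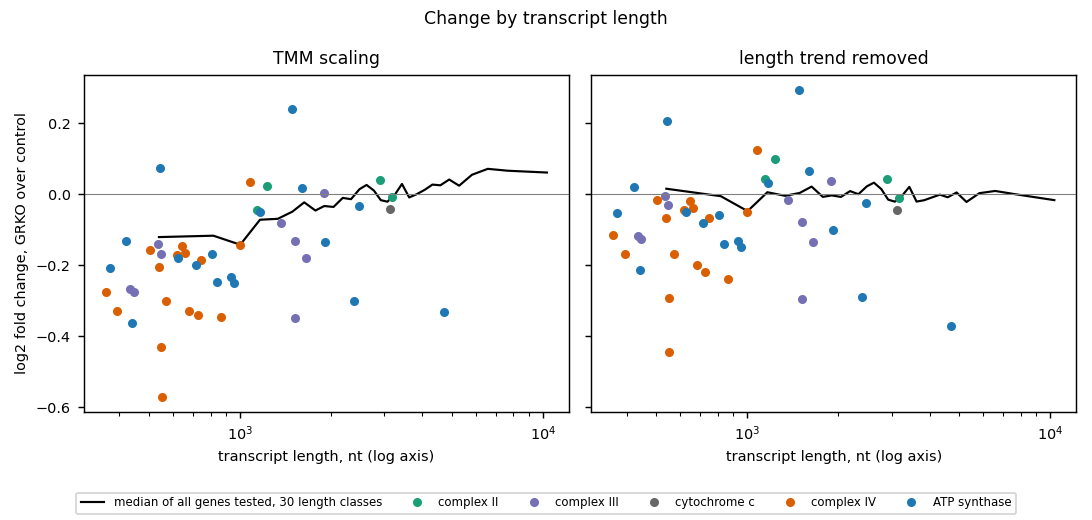
Log2 fold change, libraries labelled knockout over control (vertical axis), against transcript length in nt (horizontal log axis) for the 47 genes (dots, coloured by complex) and the median of all genes tested in length classes holding about equal numbers of genes (line); left, TMM scaling; right, each library's length trend removed. On the left the medians of the genes under 600 nt and of 600 to 1000 nt are -0.27 and -0.20, and on the right -0.12 and -0.08.

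Base composition moved with the results as well. GC content is that of the longest transcript of each gene in GENCODE, which need not be the principal transcript used for length. Over all genes tested the median log2 fold change was 0.17 for transcripts under 45% GC and -0.15 for those of 55% GC or more. The 9 respiratory genes under 45% GC had a median of -0.04 and the 12 of 55% or more -0.29. With the GC trend removed the median of the 47 genes was -0.15, with 40 negative, and 4.64% of all genes were called. Cox8a and Cox8b no longer passed. Cox7c (38.4% GC) and Uqcrb (40.4% GC) then fell, with log2 fold changes of -0.46 and -0.34 (edgeR adjusted p = 0.0138 and 0.0280), beside Atp5g1.

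Isoform use was compared within each library, where scaling has no effect, as a percent of the counts of the paired genes. Of the VIIa counts, Cox7a1 took 55.7%, 53.4%, 52.8% and 54.1% in E to H, against 58.2%, 56.9%, 57.4% and 54.3% in controls A to D. Library E lay above D, so the groups overlapped, and the difference of -2.70 percentage points gave p = 0.0571 (two-sided exact permutation test over 70 arrangements, smallest possible p = 0.0286; 0.286 after Benjamini-Hochberg adjustment over 5 shares). Cox6a2 took 97.6 ± 0.308% of the VIa counts in the libraries labelled knockout and 97.6 ± 0.528% in control (exact permutation p = 0.971). Cox8b took 89.8 ± 0.816% of the VIII counts in the libraries labelled knockout and 88.8 ± 0.885% in control (exact permutation p = 0.171). Cox4i2 took 0.271 ± 0.0537% of the IV counts in the libraries labelled knockout and 0.304 ± 0.0398% in control (exact permutation p = 0.343). Of the subunit c counts, Atp5g1 took 29.6 ± 1.48% in the libraries labelled knockout and 31.3 ± 1.77% in control (exact permutation p = 0.200). Errors are SD with n = 4 each, and no share passed. The muscle forms of VIa and VIII took most counts in both groups, without correction for length.

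**Figure D5:**
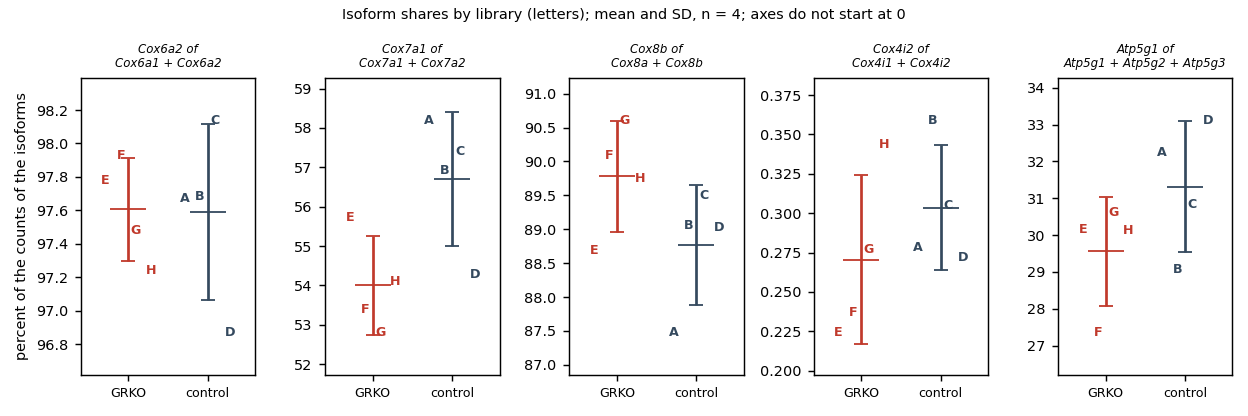
Percent of the counts of paired or grouped isoform genes taken by the named gene, by library (letters), with mean and SD (n = 4); vertical axes do not start at 0. Cox7a1 has the widest separation, with only library E above control library D, and Cox6a2 stays between 96.9% and 98.1% in all libraries.

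Per length, the most abundant of these transcripts was Atp5b, at 1465 CPM per kb in the libraries labelled knockout and 1607 in control. Atp5a1 followed at 926.5 CPM per kb in the libraries labelled knockout and 948 in control. Cox4i1 was at 685 in the libraries labelled knockout and 779 in control, and Cox6a2 at 684.5 and 859 in the same groups. The order of Cox4i1 and Cox6a2 is within their spread. Among complex II genes, Sdha stood at 325 CPM per kb in the libraries labelled knockout and 316 in control. These levels rest on 1 annotated transcript per gene, and for Atp5g1 that transcript, of 4715 nt, is far longer than those of Atp5g2 and Atp5g3, so no level per length is compared for it. Short respiratory genes also have many processed copies in the genome, and how the authors' counting shared reads with them is not stated in the labels.

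Of 40 tested assembly factors, 1 fell and 2 rose (7.50% called, near the 8.45% of all genes) with a median log2 fold change of -0.08. Cox15, which makes the heme A of complex IV, fell to 31.4 ± 1.5 CPM in the libraries labelled knockout, against 39.9 ± 2.38 CPM in control (log2 fold change -0.35 ± 0.07, edgeR adjusted p = 0.0123). Atpaf1, a chaperone of the ATP synthase head, rose to 59.6 ± 3.13 CPM against 47.3 ± 3.47 CPM in control (0.33 ± 0.07, edgeR adjusted p = 0.0182), and Sdhaf3, an assembly factor of complex II, to 14.8 ± 1.57 CPM against 11.9 ± 0.338 CPM in control (0.31 ± 0.09, edgeR adjusted p = 0.0464). Of 25 regulators, 1 fell and 4 rose (20% called, 16% as higher, against 8.45% and 4.04% of all genes), with a median of 0.00. In 9 of the 25 the libraries labelled knockout all lay above control, against 7.68% of all genes. Esrrg, an orphan receptor that drives oxidative genes in muscle, rose to 28.3 ± 1.94 CPM against 20.9 ± 1.57 CPM in control (0.44 ± 0.08, edgeR adjusted p = 0.00962). The deacetylase gene Sirt1 and the mitochondrial transcription factor gene Tfb2m rose by 0.41 ± 0.10 and 0.37 ± 0.08 on the log2 scale (edgeR adjusted p = 0.0308 and 0.0202). Sp1, a general activator, rose by 0.26 ± 0.07 (edgeR adjusted p = 0.0469). Polrmt, the mitochondrial RNA polymerase, fell by 0.35 ± 0.08 on the log2 scale (edgeR adjusted p = 0.0206). Ppargc1a, the coactivator of mitochondrial biogenesis, was not called (0.13 ± 0.06, edgeR adjusted p = 0.171). Sp1 and Ppargc1a fall outside the naming rule and were chosen after their values were seen. Without libraries E and G, Esrrg stayed called (0.49, adjusted p = 0.0461), and Cox15, Atpaf1, Sdhaf3, Sirt1, Tfb2m and Polrmt did not (adjusted p = 0.0602 to 0.145), nor did Sp1. With the GC trend removed, Esrrg (0.29) and Cox15 (-0.37) stayed called, and the other 5 and Sp1 did not. Sdhaf3 lost its call in 11 settings in all, among them limma-voom (adjusted p = 0.0509), the length trend removed (0.0504) and every single library left out but E (up to 0.121). Scaled by library size alone, Cox15 was not called (-0.28, adjusted p = 0.0566). With single libraries left out, Esrrg and Cox15 stayed called throughout. Atpaf1 was lost without G or C (adjusted p up to 0.0686), Tfb2m without G, H or A (up to 0.0729), Polrmt without G, A or C (up to 0.0767) and Sirt1 without F, G, H, A or C (up to 0.104).

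The partner subunits encoded in mitochondrial DNA did not pass. Of 6 genes of complexes III to V, none was called with edgeR, DESeq2 or limma-voom, and 1 reached an unadjusted p under 0.05. The cytochrome b gene mt-Cytb averaged 19550 ± 690 CPM in the libraries labelled knockout and 18180 ± 1145 CPM in control (log2 fold change 0.10 ± 0.07), and mt-Co1, the catalytic subunit of complex IV, 18370 ± 1115 CPM in the libraries labelled knockout and 16320 ± 1193 CPM in control (0.17 ± 0.08). Both signs turned with the GC trend removed. The genes mt-Co2, mt-Co3 and mt-Atp6 were counted at 0.389 to 10.1 CPM, far below mt-Co1, so no direction is given for them. The remaining gene, mt-Atp8, was at 187, 247, 713 and 831 CPM in E to H. In controls A to D it was at 243, 329, 254.5 and 444 CPM. The groups overlapped (log2 fold change 0.64 ± 0.53, edgeR adjusted p = 0.478). A further 7 tested genes related to the complexes but outside the symbol rule, among them the ATP synthase inhibitor Atpif1, gave no edgeR call. Of the 7, 4 had an unadjusted p under 0.05, and DESeq2 and limma-voom called 2 each. Over all genes 27.1% had an unadjusted p under 0.05, and DESeq2 called 14.3% and limma-voom 12.3%. The smallest p-values among the 7 belonged to Ndufa4l2, at 6.55 CPM in the libraries labelled knockout and 8.62 CPM in control, and 2010107E04Rik, at 111 CPM and 133 CPM in the same groups.

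The 10 markers of slow and oxidative fibres, which are rich in mitochondria, summed to 4122 to 5414 CPM in the libraries labelled knockout and 5248 to 6459 CPM in control, and 1, Myoz2, fell. Their median log2 fold change was -0.57, and they ran from -0.79 (Myoz2) to -0.18 (Mb), with SE of up to 0.52 (Tnni1). The 8 markers of glycolytic fibres summed to 145200 to 162100 CPM in the libraries labelled knockout and 150600 to 188700 CPM in control, and 1, Mylpf, fell. Their median log2 fold change was -0.13, and they ran from -0.52 (Mylpf) to 0.03 (Myh1). Of 6 smooth muscle and pericyte markers 4 fell, with sums of 452 to 520 CPM in the libraries labelled knockout and 521 to 630 CPM in control. Most of this sum was Rgs5, at 347 CPM in the libraries labelled knockout and 355 CPM in control. The median log2 fold change of the 6 was -0.85. Of 6 endothelial markers 2 fell, with sums of 350 to 385 CPM in the libraries labelled knockout and 395 to 427 CPM in control. Of 6 macrophage markers 2 rose, with sums of 48.1 to 68.7 CPM in the libraries labelled knockout and 32.2 to 53.2 CPM in control. Of 5 fibroblast markers 1 rose and 1 fell, with sums of 715 to 1003 CPM in the libraries labelled knockout and 750 to 1170 CPM in control. Adipocyte markers gave no call, at 198.5 to 295 CPM in the libraries labelled knockout and 183 to 289 CPM in control, nor did erythroid markers, at 88.8 to 209 CPM and 111 to 134 CPM in the same groups. Most of the adipocyte sum was Fabp4, at 199 CPM in the libraries labelled knockout and 192 CPM in control. The adipocyte markers ran from a log2 fold change of 0.05 (Fabp4) to 1.71 ± 0.82 (Lep, SE), with a median of 0.65. The 3 brown adipocyte markers summed to at most 1.38 CPM, with Ucp1 at 0 in the 4 control libraries. No listed marker was at 0 in all libraries. The part of these cells in the respiratory gene results was not tested.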

How the data were processed

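Poly(A) RNA of 4 libraries labelled GR(i)skm-/- and 4 control libraries was sequenced from stranded mRNA libraries, per the labels' protocols. The deposited values are whole-number counts per gene, which the authors made by aligning to mm10 with TopHat2 and counting with HOMER, per the series' design text and the submitters' processing notes. No source used here states HOMER's strand setting or annotation release. The closest pair of libraries in a group, A and C, differed by a chi-square per degree of freedom of 13.1, so all 8 were kept as separate samples. Column names carry a group but no replicate number of the labels.

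Genes were filtered with filterByExpr (minimum count 10), scaled with TMM and tested with edgeR 4.0.16 (R 4.3.3) by the quasi-likelihood test over 14712 genes, with Benjamini-Hochberg adjustment and a threshold of 0.05. The test was checked on simulated counts. DESeq2 1.42.0, limma 3.58.1 (voom), other scalings and filters, removal of GC or length trends (lowess, span 0.3) and leaving out libraries were alternatives. Isoform shares were tested by exact permutation in scipy 1.17.1. Gene positions, lengths and GC content came from GENCODE release M 21, and promoters from RefSeq. The members and lists were chosen with earlier results of these data known. Besides Nr3c1 and the tested members, up to 4 called genes with the largest changes, or 2 with the smallest p, were named per pathway list. The upper level given for Cox8c covers counting error only, whereas each SE or SD reflects the spread between libraries.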

Additional observations from a re-analysis of the deposited data

Results flagged for a closer look

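Values for the 47 genes, the 5 isoform shares and 5 summed levels (4 complexes and all genes) were screened within each group of 4 libraries for 1 library standing apart from the other 3. Among 114 such groups 2 stood out, and chance gives about 1 in 20. Atp5f1 was low in library G, at 338.7 CPM, with the other libraries labelled knockout at 356.4 to 358.2 CPM. The share of subunit c counts taken by Atp5g1 was low in library F, at 27.36%, with the other libraries labelled knockout at 30.12% to 30.61%.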

How the results depend on the processing

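Across 17 other settings, 36 of 47 genes kept the sign of their log2 fold change in every setting that tested them and 11 did not (Cox6b2 was tested in 15), and none rose under any of them. The number of genes that fell was 3 by edgeR, 5 with no filter, 11 by DESeq2, 8 by limma-voom and 0 without E and G, and 0 to 11 when single libraries were left out. Tested were 47 genes, but 48 with no filter and 46 by DESeq2. Of all genes, 8.45% were called by edgeR, 4.68% with no filter, 14.3% by DESeq2 and 12.3% by limma-voom. The share was 9.12% scaled by library size alone, 4.64% with the GC trend removed, 8.14% with the length trend removed and 1.49% without E and G. With single libraries left out it ran from 2.51% to 12.1%. Among assembly factors, 3 calls became 0 without E and G and 1 with the GC trend removed (1 to 5 with single libraries left out). Among regulators, 5 calls became 8 scaled by library size alone, 1 without E and G and 1 with the GC trend removed (1 to 7). Among related genes, 0 became 1 scaled by library size alone, 2 by DESeq2 and 2 by limma-voom (0 to 2). Scaled by library size alone, the log2 ratios of summed levels were -0.0403 for ATP synthase, 0.0923 for complex II, -0.069 for complex III and -0.0483 for all 49 genes. With that scaling the median log2 fold change of all genes tested was 0.0631, against -0.0103 with TMM. On a log2 ratio scale the Cox6a2 share differed by -0.0044. With the GC trend removed, signs turned for Atp5f1 (-0.256), Sdhb (0.0547), Cyc1 (0.0327), Atp5a1 (0.075), Uqcrc2 (-0.0938), Atp5l (-0.1539), mt-Cytb (-0.1269) and mt-Co1 (-0.0462). By library size alone they turned for Sdhb (0.0359), Atp5a1 (0.0421), Atp5c1 (0.0275), Sdhc (0.0671) and Cycs (0.0356), and with the length trend removed for Sdhb (0.0426), Atp5e (0.0203) and Atp5c1 (0.0317). Without E and G they turned for Sdhb (0.0162) and Sdhc (0.0302), by limma-voom for Uqcrc2 (-0.0013), and for Sdhc with DESeq2 size factors (0.0019), no filter (0.0093) and the DESeq2 Wald test (0.0021). With single libraries left out, ranges crossed 0 for Atp5a1 (-0.0486 to 0.0011), Atp5c1 (-0.0882 to 0.0061), Atp5f1 (-0.0143 to 0.0559), Atp5l (-0.0323 to 0.1874), Cycs (-0.0866 to 0.0173), Sdhb (-0.1031 to 0.0383), Sdhc (-0.0232 to 0.0108), Sdhd (-0.0098 to 0.0633) and Uqcrc2 (-0.0134 to 0.0266). The cause of these changes was not tested. Atp5g1 lost its call without F, G, A or C (adjusted p up to 0.0593), Cox8a without F, G, H, A or C (up to 0.0950) and Cox8b without any library but B or D (up to 0.118), all by edgeR. No paired analysis was possible because the columns carry no replicate number of the labels.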
